A study of Mus musculus with 16 samples.

Results

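RNA from cultured mouse sensory neurons collected 12 h after their axons were cut was compared with RNA collected 3 h after the cut. The arrays were chosen by the time in their titles, which gave 5 arrays at 12 h and 6 at 3 h among the 16 arrays of the study. The comparison asks which transcripts of an early injury response have faded by 12 h and which have built up. The difference was taken within each of 3 lentiviral constructs and then averaged with equal weight. The 5 arrays of uninjured cultures were not part of the difference. They were normalized and filtered together with the others, and those with a replicate also entered the estimate of the spread.

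The cultures were dorsal root ganglia, which hold the cell bodies of sensory neurons, from CD-1 embryos at embryonic day 13. They were plated as spots, so that axons grow outward and can be severed from the cell bodies with a blade. All cultures carried a lentivirus from day 4: a MISSION control shRNA (control), MISSION shRNAs against HIF-1α (knockdown), or human HIF-1α in the FUGW vector (overexpression). The cut was made on day 7. At each time control and knockdown had 2 arrays, and overexpression had 2 at 3 h but only 1 at 12 h. The labels leave unsaid if the arrays of a group stem from different animals or cultures. The p-values therefore reflect array-to-array spread, which may be technical. RNA came from whole spots, so fewer cells of a type and less RNA per cell cannot be told apart in any result below.

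Cutting an axon sets off a programme of transcription in the cell body. Immediate early genes such as Fos and Egr1 are switched on within minutes to hours from factors already present, and most are then silenced. Jun, a partner of Fos in the AP-1 transcription factor, is known in sensory neurons for a longer rise after axotomy, together with Atf3, Gadd45a and other genes of the regenerative response. Stress kinases that signal from the axon also engage the integrated stress response, in which the factors Atf4, Ddit3 and Cebpb take part.

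Illumina Mouse Ref-8 v2.0 arrays gave gene expression as intensity, the background-subtracted brightness of a probe on a linear scale, and tested on a log2 scale. The number of arrays limits the precision. Prph, Isl1, Calca and Uchl1, neuronal genes from a list of sensory neuron genes, were above an intensity of 16 on all 11 arrays. The level of 16 is taken here as background, and the medians of these genes were 3913 to 14150. Tubb3 was also above 16 on all 11 but dimmer, with a median of 47.9. Of the 29 sensory neuron genes on the array, 23 passed the filter on dim probes. Trpm8, Trpa1, Gfra2, Nefl, Runx3 and Snap25 did not. Col1a1 and Col3a1 of fibroblasts and Ptprc of leukocytes were above 16 on 0 of the 11. Of the wider marker lists, 7 of 14 fibroblast genes (Vim and Pdgfra among them) and 4 of 12 macrophage genes (Lyz2, C1qb, Aif1 and Csf1r) passed that filter. Across genes, the correlation between replicate arrays of a group was 0.994 to 0.996, and between 3 h and 12 h arrays within a construct 0.993 to 0.995. In uninjured cultures Fos and Rin1, whose values follow, stood at different levels in the 3 constructs, which was not tested, and the contrast was taken within constructs. Hif1a stood at 28.3 and 36.3 in control at 3 h and at 25.5 and 25.9 at 12 h, but at -0.63 and 1.40 and at -6.68 and -7.16 in knockdown. In overexpression it stood at 2.64 and 0.23 at 3 h and at 5.22 at 12 h, and this mouse probe does not check the human cDNA that was introduced. Its average log2 difference between the times was -0.06 (SE 0.0740, limma adjusted p = 0.80).

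Between 3 h and 12 h the largest shifts were modest and went both ways. Of 11151 genes tested, 27 differed at a Benjamini-Hochberg adjusted p under 0.05 in limma (0.242%), 11 of them higher at 12 h (0.0986%) and 16 lower (0.143%). The median log2 difference over all genes was 0.01. Among the 27 the size of the log2 difference ran from 0.35 to 0.93 with a median of 0.43, and none reached a 2-fold change. The higher genes included the transcription factors Jun, Cebpb and Ddit3, and the lower ones Fos, the kinesin-binding protein gene Kifbp and an embryonic globin, Hbb-y. Of the 27, 2 carry clone names (1 higher, 1 lower) and are counted but not named.

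The evidence for these 27 genes lay close to the threshold. Their adjusted p-values ran from 0.0395 to 0.0465, and 20 of them were above 0.045, whereas 1302 genes had an unadjusted p under 0.05 (11.7%). At an adjusted p under 0.10, a threshold chosen after the values were seen, 68 genes passed (0.610%). The count fell to 0 when the overexpression array at 12 h, control replicate 1 at 12 h, control replicate 2 at 3 h, or knockdown replicate 2 at either time was left out. It was 36 without either uninjured control array, and 7 (1 higher, 6 lower) with cyclic loess in place of quantile normalization. With values below 16 set to 16, 8 genes were called (6 higher, 2 lower), 0 of them among the 27. With each of the 16 arrays left out in turn, Kifbp stayed called in 10 fits and Enoph1 in 9, the most of the 27. Fos and Robo1 stayed called in 8 and Cebpb in 5. Jun, Ddit3, Srxn1 and Rin1 stayed called in only 3, the fewest of any. No direction of the 27 turned under any setting tried.

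**Figure D1:**
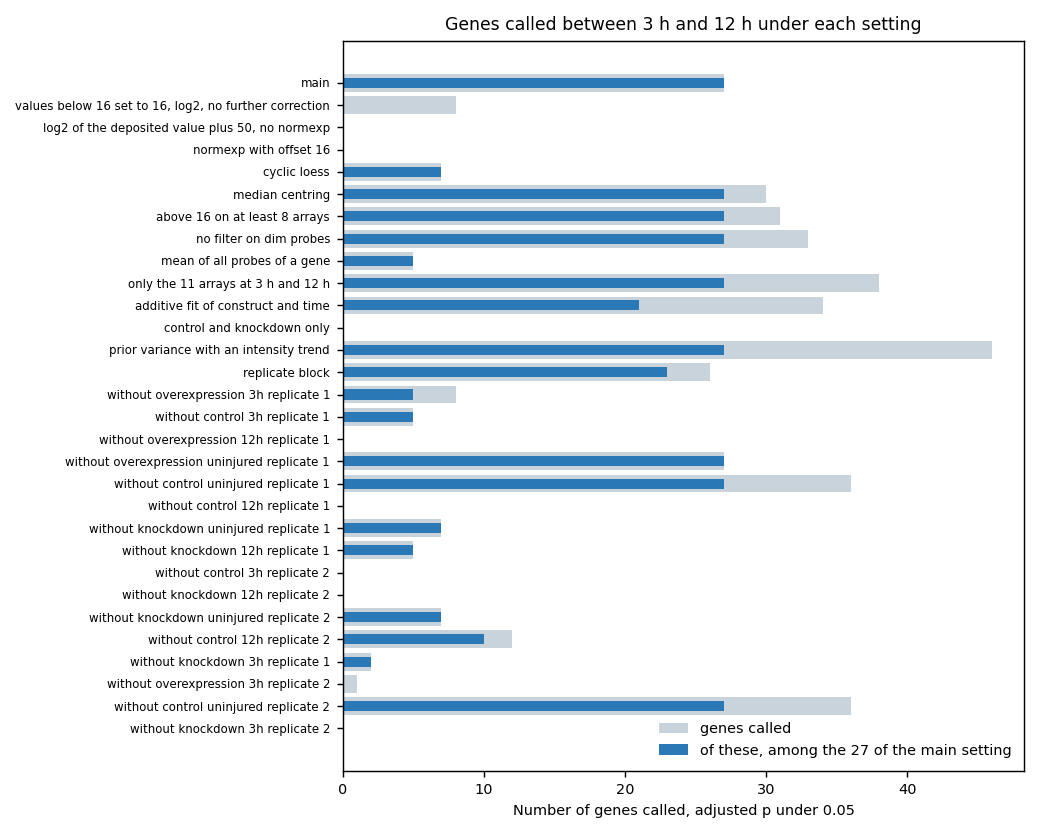
Number of genes called between 3 h and 12 h (x axis) under each processing setting or with each array left out (y axis); grey bars give all calls and blue bars those among the 27. The count runs from 0 to 46, with all 27 retained under median centring, under both other probe filters, with only the 11 injured arrays and with an intensity trend in the prior.

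The rise of Jun was the largest among the higher genes. Its intensity in control was 250.5 and 194 at 3 h and 283 and 284 at 12 h. In knockdown it was 351 and 301 at 3 h and 593 and 597 at 12 h. In overexpression it was 368 and 351 at 3 h and 531 at 12 h. The 12 h arrays lay above the 3 h arrays in every construct. The log2 difference was 0.51 (SE 0.105, adjusted p = 0.0465 in limma), a 1.42-fold rise on the corrected scale. By construct it was 0.28 in control, 0.75 in knockdown and 0.49 in overexpression.

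Cebpb, which encodes the stress- and cytokine-responsive factor C/EBPβ, was the higher gene with the smallest p. Its control intensities were 423 and 449 at 3 h against 608 and 585 at 12 h. In knockdown they were 734 and 748 against 997 and 907. In overexpression they were 1030 and 980.1 against 1395. The groups did not overlap in any construct, and the log2 differences of 0.40, 0.33 and 0.45 in control, knockdown and overexpression were close to each other. The average was 0.39 (SE 0.0713, adjusted p = 0.0398 in limma).

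Ddit3 encodes CHOP, a C/EBP-family factor induced by the integrated stress response. In control it went from 694 and 657 at 3 h to 876 and 830.4 at 12 h. In knockdown it went from 889.8 and 862 to 1398 and 1304, and in overexpression from 2597 and 2940.0 to 3229. Every 12 h array was again above the 3 h arrays of its construct, with a log2 difference of 0.37 (SE 0.0740, adjusted p = 0.0465 in limma). A second probe for Ddit3 gave 0.38.

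Srxn1, the sulfiredoxin gene that repairs overoxidised peroxiredoxins and is a target of Nrf2, stood at 918 and 886 in control at 3 h and at 1195 and 1121 at 12 h. In knockdown it stood at 1217 and 1219 and then at 1470 and 1716, and in overexpression at 1952 and 2206 and then at 2732. The 3 constructs gave log2 differences of 0.34, 0.37 and 0.39, the narrowest spread among the genes shown here in full. The average was 0.36 (SE 0.0724, adjusted p = 0.0465 in limma). The 2 other probes for Srxn1, which were dimmer, gave 0.04 and -0.06, so the rise was seen on 1 of 3 probes.

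Rin1, a Ras effector that activates Rab5 in endocytosis, was dim in control, at 25.9 and 9.65 at 3 h and 39.2 and 27.7 at 12 h. It was brighter in knockdown, at 71.0 and 60.8 and then 111.5 and 100.1, and brightest in overexpression, at 638 and 766.5 and then 1044. The level thus differed widely between constructs. The log2 differences were 0.25 in control, 0.38 in knockdown and 0.54 in overexpression, with an average of 0.39 (SE 0.0810, adjusted p = 0.0465 in limma). A constant was added to every intensity before the log, which understates the change most in control, where Rin1 was dimmest. The constructs therefore cannot be ranked by these differences. In uninjured cultures Rin1 stood at 18.9 and 6.73 in control and at 719.9 on the overexpression array.

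The other named higher genes were Rnf135 (log2 difference 0.46), an E3 ubiquitin ligase gene of RIG-I signalling, Anks1 (0.38), an adaptor of receptor tyrosine kinases, and Hfe (0.36), a regulator of iron uptake. Yeats2 (0.35), a histone reader, and Glipr2 (0.35), a Golgi-associated protein gene, completed the group. Hfe was near background in control, at 4.16 and 5.53 at 3 h and 13.5 and 16.5 at 12 h, and reached 95.3 on the overexpression array at 12 h against 21.9 and 45.9 at 3 h. Rnf135 and Glipr2 each had a dimmer second probe, which gave 0.02 and -0.06. In all 11 higher genes the 12 h arrays lay above the 3 h arrays within each construct, as they did in 299 of the 11151 genes (2.68%). The called genes were chosen by the same contrast, so this is a description of them.

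Fos, an immediate early gene and a subunit of AP-1, was lower at 12 h. In control it went from 47.5 and 59.6 at 3 h to 27.1 and 19.1 at 12 h, the latter close to background. In knockdown it went from 401 and 537 to 310.2 and 230.1, and in overexpression from 295 and 361 to 215. All 12 h arrays lay below the 3 h arrays of their construct. The log2 difference was -0.52 (SE 0.0952, adjusted p = 0.0398 in limma), with -0.42, -0.67 and -0.48 in control, knockdown and overexpression. Because 50 was added to every intensity before the log, the change in control, where Fos was dim, is understated. Uninjured levels differed between constructs, at 16.6 and 28.5 in control, 171 and 232 in knockdown and 421 on the overexpression array.

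**Figure D2:**
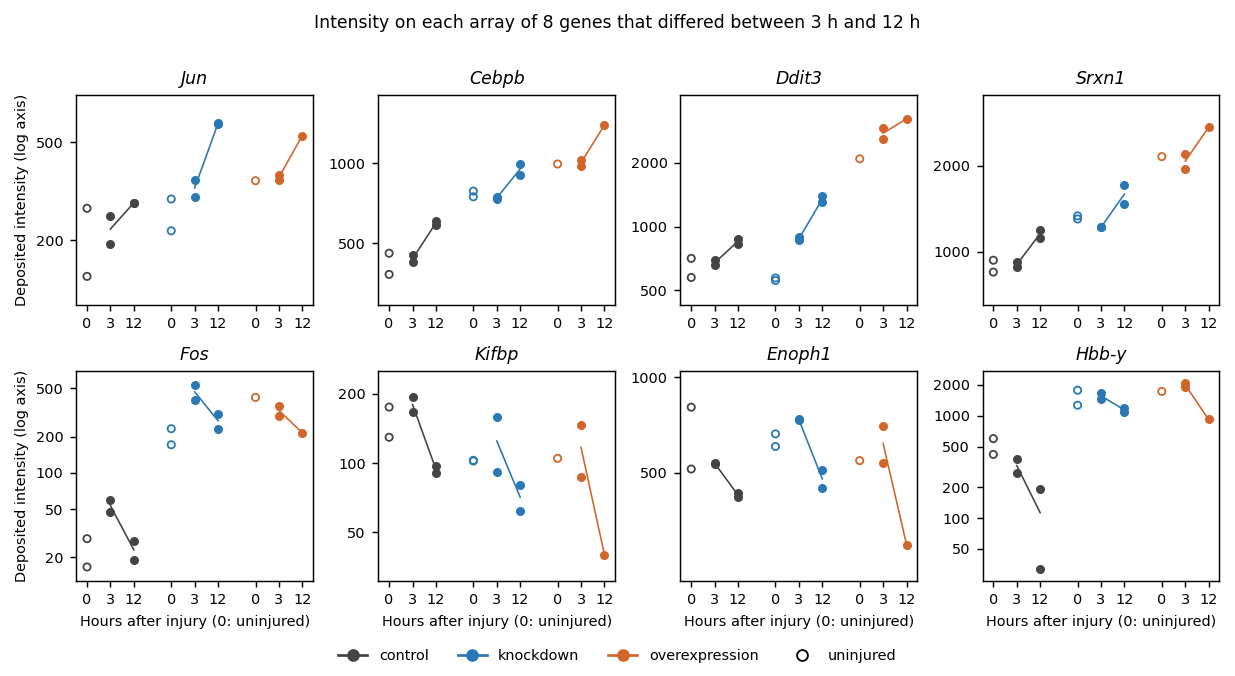
Deposited intensity (log axis) on each array of 8 called genes against hours after injury, by construct. Filled points are injured arrays. Open points are uninjured arrays, drawn before 3 h although the labels give them no hour. Lines join the means at 3 h and 12 h. Jun, Cebpb, Ddit3 and Srxn1 are higher and Fos, Kifbp, Enoph1 and Hbb-y lower at 12 h in each construct, while the constructs differ in level.

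AP-1 binds the letters TGANTCA, and Jun is known to act on its own promoter through the related element TGACATCA. The RefSeq promoters of Jun, Fos, Srxn1 and Ddit3 are printed, the first pair as the genes of AP-1 itself and the second as stress genes that rose and were chosen because their windows hold a match. Each window runs from 250 bases before to 50 after the gene start, 5′ to 3′ on the gene's own strand, in the build GRCm38.p6, with TGANTCA or TGACATCA in capitals.
Jun (chr4:95052173-95052472, - strand): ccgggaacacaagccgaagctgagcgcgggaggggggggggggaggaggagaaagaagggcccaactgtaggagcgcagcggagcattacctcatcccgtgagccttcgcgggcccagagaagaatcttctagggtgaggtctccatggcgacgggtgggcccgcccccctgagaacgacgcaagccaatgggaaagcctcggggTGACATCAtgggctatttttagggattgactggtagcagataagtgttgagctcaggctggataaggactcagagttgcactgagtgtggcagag
Srxn1 (chr2:152105274-152105573, + strand): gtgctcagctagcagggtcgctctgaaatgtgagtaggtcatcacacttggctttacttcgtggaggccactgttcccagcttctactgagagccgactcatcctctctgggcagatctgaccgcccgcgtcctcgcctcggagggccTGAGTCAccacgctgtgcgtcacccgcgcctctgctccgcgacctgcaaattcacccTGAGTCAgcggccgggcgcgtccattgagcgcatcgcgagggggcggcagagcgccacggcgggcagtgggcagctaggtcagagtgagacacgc
Ddit3 (chr10:127290543-127290842, + strand): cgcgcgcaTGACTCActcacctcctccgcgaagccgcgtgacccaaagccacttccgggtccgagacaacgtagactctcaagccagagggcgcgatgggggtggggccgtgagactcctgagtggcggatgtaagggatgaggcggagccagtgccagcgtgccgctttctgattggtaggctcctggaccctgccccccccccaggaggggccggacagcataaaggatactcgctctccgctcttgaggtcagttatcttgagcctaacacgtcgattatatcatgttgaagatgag
Fos (chr12:85473640-85473939, + strand): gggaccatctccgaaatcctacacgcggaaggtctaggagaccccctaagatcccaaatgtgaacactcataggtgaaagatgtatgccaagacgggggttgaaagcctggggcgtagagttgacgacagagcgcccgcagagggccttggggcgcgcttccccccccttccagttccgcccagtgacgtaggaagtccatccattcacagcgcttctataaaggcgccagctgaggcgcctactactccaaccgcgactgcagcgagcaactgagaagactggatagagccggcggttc
The Jun window holds TGACATCA at -45 from the gene start, the Srxn1 window TGANTCA at -102 and -45, and the Ddit3 window TGANTCA at -242. The Fos window holds neither. RefSeq windows were found for 24 of the 27 called genes, with 27 windows in all. Searched on both strands, TGANTCA was in 3 of these 27 (Srxn1, Ddit3 and Hfe, the last at -67) and in 7.81% of all 32851 windows. TGACATCA was in 1 of the 27 and in 3.62% of all. TGACGTCA, the cyclic AMP response element, was in 0 of the 27 and 1.79% of all, and TGATGCAAT, bound by ATF4 with C/EBP factors, in 0 of the 27 and 0.192% of all. The CArG box of serum response factor was in 2 (Glipr2 and Robo1) and in 1.63% of all. These are matches of letters in short windows, and binding was not measured.

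Kifbp and Enoph1 had the smallest p-values of the comparison. Kifbp encodes a protein that binds kinesins and restrains their motors. Its control intensities were 166 and 193.5 at 3 h and 91.0 and 97.0 at 12 h. In knockdown they were 91.4 and 158 and then 80.5 and 61.8, and in overexpression 87.3 and 147 and then 40.0. The 3 h replicates of knockdown and overexpression stood far apart, yet the 12 h arrays lay below both. The log2 difference was -0.61 (SE 0.102, adjusted p = 0.0395 in limma).

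Enoph1 encodes an enzyme of methionine salvage. Its control intensities were 534 and 539 at 3 h and 432 and 419.5 at 12 h. In knockdown they were 731 and 739.9 and then 510.3 and 448, and in overexpression 536 and 702 and then 298. The groups did not overlap, and the log2 difference was -0.58 (SE 0.0957, adjusted p = 0.0395 in limma). It ran from -0.29 in control to -0.90 in overexpression, where a single array stands for 12 h.

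Robo1, a receptor for the guidance cue Slit, went from 235 and 291 to 189 and 227 in control. In knockdown it went from 855 and 824 to 603.5 and 478, and in overexpression from 188 and 180.2 to 114. The decrease in knockdown exceeded that in control on this scale, but the difference between constructs did not pass its own test (F test in limma, adjusted p = 0.955). Robo1 averaged -0.44 (SE 0.0793, adjusted p = 0.0398 in limma).

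Hpgd, which encodes the enzyme that inactivates prostaglandins, went from 147 and 136 to 79.7 and 116 in control. In knockdown it went from 463 and 465 to 277 and 305, and in overexpression from 179 and 152 to 98.6. Its log2 difference was -0.47 (SE 0.0807, adjusted p = 0.0398 in limma), with no overlap in any construct. Sptssa, a small subunit of the enzyme that starts sphingolipid synthesis, averaged -0.59. The mitochondrial carrier gene Slc25a16 averaged -0.48.

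Spock3, the gene of a neural proteoglycan, went from 1900 and 2294 at 3 h to 1129 and 1021 at 12 h in knockdown. In control it went from 2029 and 2454 to 1651 and 2111, where the times overlap, and in overexpression from 849 and 879 to 792. The average log2 difference was -0.43 (SE 0.0872, adjusted p = 0.0465 in limma). Sec11c (-0.43), a catalytic subunit of signal peptidase, and Ica1l (-0.38) also had overlapping times in control. The remaining named genes were Btbd3 (-0.44), which shapes dendrites, with a second probe at -0.38, and Eif4a2 (-0.38), an RNA helicase of translation initiation. Tet2 (-0.38), an enzyme that oxidises methylcytosine, was the dimmest of these. Eif4a2, Ica1l and Tet2 fall outside the rule for naming and were added after their values were seen. In 13 of the 16 lower genes every 12 h array lay below the 3 h arrays of its construct, as in 241 of all genes (2.16%). In either direction, times that did not overlap in any construct were found in 24 of the 27 called genes and in 540 of all genes (4.84%).

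Embryonic globins formed a pair among the lower genes. Hbb-y, an embryonic β-like globin, went from 277 and 376 at 3 h to 31.8 and 194 at 12 h in control. In knockdown it went from 1682 and 1451 to 1088 and 1196, and in overexpression from 2110 and 1899 to 920.5. The difference of -0.93 (SE 0.172, adjusted p = 0.0428 in limma) was the largest of the comparison, and the control arrays at 12 h stood far apart.

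Hba-x, the embryonic ζ-globin gene, went from 44.4 and 45.7 to 1.99 and 37.1 in control. In knockdown it went from 216 and 154 to 137 and 149.9, and in overexpression from 307 and 290.4 to 124. No construct had overlapping times, and the average was -0.53 (SE 0.104, adjusted p = 0.0465 in limma). A second probe for Hbb-y gave -1.02. Globin genes are similar in sequence, so a probe may read more than 1 of them.

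A list of erythroid genes was added after these values were seen. Of its globins, Hba-a1 gave -0.40 (adjusted p = 0.229 in limma), Hbb-bh1 -0.15 and Hbb-b1 -0.06, and these did not pass. Against uninjured cultures Hba-a1 was -0.33 at 3 h (adjusted p = 0.547 in limma). It was -0.73 at 12 h (adjusted p = 0.0187 in limma), where it was called lower. The summed intensity of the 5 globins tested ran from 501 to 3553 at 3 h and from 113 to 2336 at 12 h. Of the other red cell genes, Alas2, Slc4a1, Epb42 and Hemgn were above 16 on 0 of the 11 arrays, and Klf1 gave -0.17. Whether a loss of red cells plays a part in the other results was not tested.

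**Figure D3:**
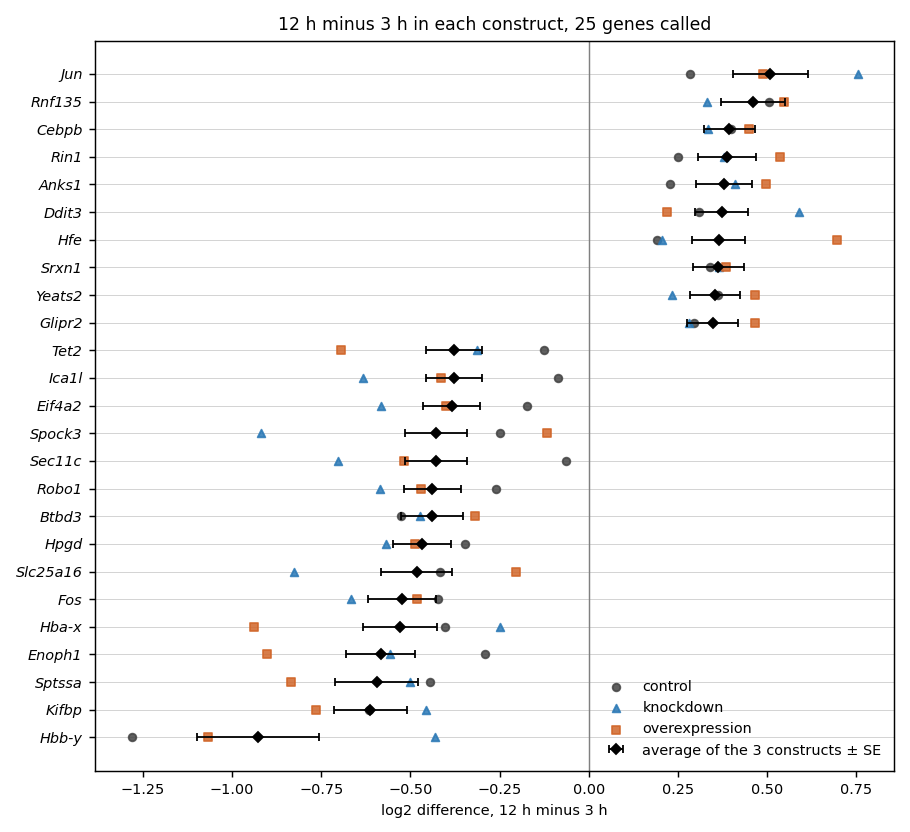
Log2 difference, 12 h minus 3 h (x axis), of the 25 named genes called, in control, knockdown and overexpression, with the average of the 3 constructs and its SE in black. All points of a gene lie on the same side of 0, and the distance between constructs is widest for Hbb-y, from -1.28 to -0.43, and Spock3, from -0.92 to -0.12.

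The counts within a single construct depended on the setting. In control 0 genes were called (524 at an unadjusted p under 0.05, 4.70%), in overexpression 0 (780, 6.99%), and in knockdown 1 (1130, 10.1%). The gene called in knockdown (0.00897%) was Spock3, with a log2 difference of -0.92 (adjusted p = 0.0231 in limma). With values below 16 set to 16, 11 genes were called in control and 57 in overexpression, and with the replicate number as a block 21 were called in knockdown. All 27 genes of the average had the same sign in all 3 constructs.

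Whether the change from 3 h to 12 h differed between constructs was tested with limma's F test, which called 0 genes (543 at an unadjusted p under 0.05, 4.87%). The genes with the smallest p were H2bu2, a histone H2B gene, with -0.66 in control, -0.17 in knockdown and 0.40 in overexpression (adjusted p = 0.406), and Ube2q2, a ubiquitin-conjugating enzyme gene, with 0.52, -0.37 and 0.30 (adjusted p = 0.413). Rdh7, a retinol dehydrogenase gene, gave 0.40, 0.12 and -0.64. Cd40, a receptor of the tumour necrosis factor family, gave -0.24, 0.62 and 0.13 (adjusted p = 0.911). Of the 11 injured arrays, H2bu2 was above 16 on 7, Rdh7 on 5 and Cd40 on 4, and Ube2q2 on all 11. In control Cd40 stood at 12.8 and 12.3 at 3 h and at -0.40 and 1.10 at 12 h. The differing signs of H2bu2, Rdh7 and Cd40 thus rest partly on values at or below background. None of the genes named here passed in this fit. With values below 16 set to 16, the same F test called 27 genes, so the count depends on how dim values are treated.

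To place the change on a time course, both times were also set against the uninjured arrays. Each of these comparisons shares its injured arrays with the 12 h minus 3 h difference. The labels give the uninjured arrays no hour of collection, and none is matched to 3 h or 12 h. Time since the cut and time in culture therefore cannot be told apart, here or in the 12 h minus 3 h difference. At 3 h 4 genes were called (0.0359%), 3 of them higher (0.0269%) and 1 lower (0.00897%), with 859 at an unadjusted p under 0.05 (7.70%). At 12 h 60 were called (0.538%), 37 higher (0.332%) and 23 lower (0.206%), with 1385 at an unadjusted p under 0.05 (12.4%). An early gene that fades was defined as called higher at 3 h than uninjured and lower at 12 h than at 3 h, and 0 genes met both tests. A late gene that builds up was defined as called higher at 12 h than at 3 h and than uninjured, and Jun, Ddit3, Cebpb and Rin1 met both.

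None of the 4 late genes passed the test against uninjured at 3 h, and their timing was not compared by a test. Ddit3 stood 0.35 above uninjured at 3 h (log2, adjusted p = 0.0977 in limma) and 0.72 at 12 h (adjusted p = 0.000160). Jun stood 0.15 above at 3 h (adjusted p = 0.812) and 0.66 at 12 h (adjusted p = 0.00826). Rin1 went from 0.12 to 0.51, and Cebpb, at 0.01 at 3 h, to 0.40. Only the step of Ddit3 before 3 h was near in size to its step afterwards, and it did not pass its own test. The uninjured intensities of Jun were 269.9 and 143 in control, 294 and 219 in knockdown and 349 on the overexpression array. In control the uninjured array at 269.9 thus lay above both 3 h arrays and close below those at 12 h, at 283 and 284.

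Srxn1 and Rnf135 followed other courses. Srxn1 was -0.05 from uninjured at 3 h and 0.31 at 12 h (adjusted p = 0.0685 in limma). Rnf135 was -0.30 at 3 h and 0.16 at 12 h, so its higher level at 12 h was measured from a level at 3 h below uninjured, a difference that did not pass (adjusted p = 0.350).

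Among the lower genes, Fos and Hpgd stood above uninjured at 3 h without passing the test for it. Fos was 0.37 above uninjured at 3 h (adjusted p = 0.232 in limma) and -0.15 from it at 12 h (adjusted p = 0.581). Hpgd was 0.30 above at 3 h (adjusted p = 0.257) and -0.17 at 12 h. The Fos arrays at 3 h lay above the uninjured ones in control and knockdown but not in overexpression, where those at 295 and 361 lay below the uninjured array at 421.

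Most of the other lower genes stood near the uninjured level at 3 h and below it at 12 h. Enoph1 was 0.04 at 3 h and -0.55 at 12 h (adjusted p = 0.0157 in limma), Robo1 -0.05 and -0.49 (adjusted p = 0.00849), and Btbd3 -0.04 and -0.48 (adjusted p = 0.0187). Spock3 was -0.06 and -0.48, Eif4a2 -0.03 and -0.41, and Ica1l -0.04 and -0.42. Hbb-y was -0.10 and -1.02, and Hba-x 0.00 and -0.53. Kifbp, at 0.14 and -0.47 (adjusted p = 0.0537), fell short of the test against uninjured at 12 h. So did Slc25a16, at 0.04 and -0.44 (adjusted p = 0.0621), and Sptssa, at 0.16 and -0.44 (adjusted p = 0.116). Sec11c, at 0.19 and -0.24 (adjusted p = 0.256), and Tet2, at 0.14 and -0.24 (adjusted p = 0.219), did not pass either.

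**Figure D4:**
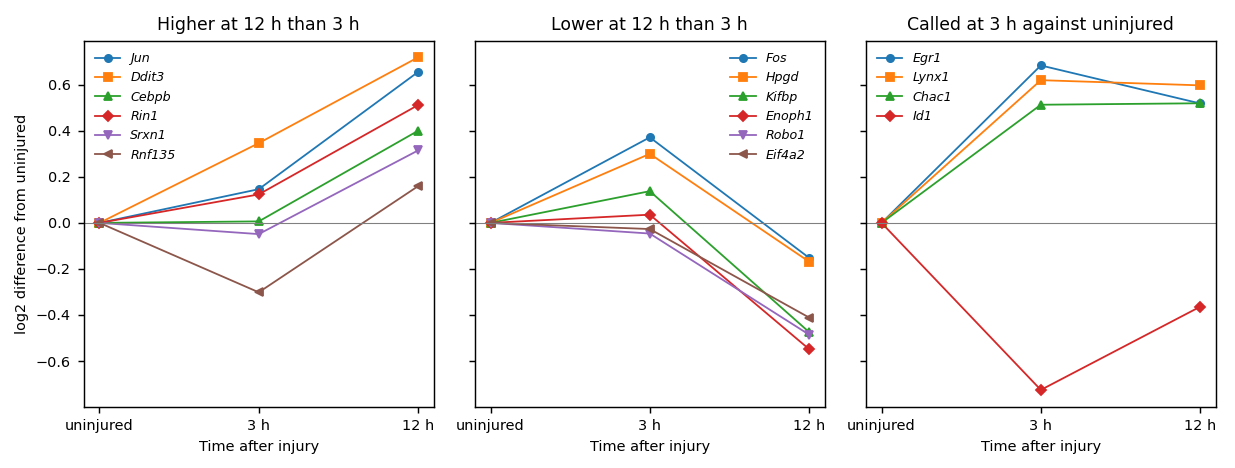
Average log2 difference from uninjured (y axis) at 3 h and 12 h (x axis, not to scale) of 6 genes higher at 12 h, 6 genes lower at 12 h, and the 4 genes called at 3 h against uninjured; points are means of the 3 constructs. Jun and Ddit3 reach 0.66 and 0.72 at 12 h, Fos and Hpgd peak at 3 h, and Egr1, Lynx1 and Chac1 are near the same height at both times.

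None of the 4 genes called at 3 h against uninjured was called between 3 h and 12 h. Egr1, an immediate early zinc-finger factor, was 0.68 above uninjured at 3 h (adjusted p = 0.00396 in limma) and 0.52 at 12 h. Its intensities in knockdown were 638 and 714 in uninjured cultures, 1454 and 1938 at 3 h and 1295 and 1057 at 12 h, so the 12 h arrays still lay above the uninjured ones. The difference between the times was -0.17 (SE 0.0995, adjusted p = 0.543). By construct it was -0.02 in control, -0.50 in knockdown and 0.03 in overexpression, so the average came mostly from knockdown. Lynx1, a modulator of nicotinic receptors, was 0.62 above uninjured at 3 h and changed by -0.02 afterwards. Chac1, a glutathione-degrading target of ATF4, was 0.51 above at 3 h and changed by 0.01.

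Id1, an inhibitor of basic helix-loop-helix factors and a target of BMP signalling, was the gene called lower at 3 h. In knockdown it stood at 719 and 673 in uninjured cultures, 403.5 and 413 at 3 h and 604 and 528.5 at 12 h. In overexpression it stood at 669.5, then at 231 and 288, then at 457.5. In control it was near background at all times. Its log2 difference from uninjured was -0.73 at 3 h and -0.36 at 12 h, and the difference of 0.36 between the times missed the threshold (SE 0.0769, adjusted p = 0.0507 in limma).

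Gene lists for pathways and cell types were read for the same contrast. Of 384 tested genes in 24 lists, 4 were called higher at 12 h (Jun, Cebpb, Ddit3 and Srxn1) and 1 lower (Fos), against 0.0986% higher and 0.143% lower over all genes, and 21 lists had no called gene. The immediate early factors moved apart, with Jun higher, Fos lower and 12 of the 14 tested not passing, at a median of -0.06. Fosb gave -0.22 (adjusted p = 0.350 in limma), Egr4 -0.19 and Nr4a2 -0.20. Their feedback regulators, such as the phosphatase gene Dusp1 (0.38, adjusted p = 0.206) and Dusp6 (-0.20), had 0 called of 21 and a median of 0.02.

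The ATF4 and stress list had 2 of 27 called higher, Cebpb and Ddit3, against 0.0986% of all genes, and a median of 0.11 against 0.01 over all genes. Ppp1r15a, which encodes the phosphatase subunit that ends the stress response, gave 0.31 (adjusted p = 0.0656 in limma), and Nupr1 and Sesn2 gave 0.22 each. Nupr1 was below 16 in control at both times and gave -0.05 there. Other members were flat or lower, with Trib3 at 0.05, Atf4 at -0.03, Asns at -0.08 and Slc3a2, the lowest, at -0.19. The endoplasmic reticulum chaperones, with 0 of 14 called, had a median of -0.05. The Nrf2 list had 1 of 15 called, Srxn1, and a median of 0.05. In it the thioredoxin gene Txn1 gave -0.45 (adjusted p = 0.123) and Mt1 0.39 (adjusted p = 0.354).

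The injury and regeneration list had 0 of 31 called and a median of 0.06. Gadd45a, a growth-arrest and stress gene, gave 0.47 (SE 0.105, adjusted p = 0.0711 in limma). Its control intensities were 404 and 412 at 3 h and 601 and 566 at 12 h, and in overexpression 409.6 and 252 against 459. The 12 h arrays thus lay above the 3 h arrays in these constructs, and in knockdown they did too, at 1013 and 1270 against 856 and 706. Tnfrsf12a, a receptor that promotes neurite growth, gave 0.36 (adjusted p = 0.0838). Atf3 gave 0.26 (adjusted p = 0.234) and Gap43, a growth cone protein gene, -0.26 (adjusted p = 0.206).

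HIF-1 targets of glycolysis had 0 of 18 called (median 0.05) and its other targets 0 of 26 (median 0.06). The highest of the other targets were Ndrg1 at 0.33 (adjusted p = 0.0954 in limma), Angptl4 at 0.26 and Ddit4 at 0.25. Members of both lists also went down, among them Higd1a at -0.23 and Bnip3l at -0.18. The glycolysis genes ran from -0.19 for Aldoc to 0.19 for Aldoa. Ribosome biogenesis genes had a median of -0.08 with 0 of 16 called, oxidative phosphorylation genes -0.07 with 0 of 26, and TGF-β and BMP targets -0.14 with 0 of 9. The NF-κB list had 0 of 8 called. Its lowest member, Nfkbiz, gave -0.35 (adjusted p = 0.0629).

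Sensory neuron genes had 0 of 23 called, with Thy1 at 0.34 and Elavl4 at -0.36 at either end and a median of -0.03. Markers of Schwann cells and satellite glia had 0 of 9 called (median -0.04), of fibroblasts 0 of 7 (-0.05), of endothelium 0 of 6 (0.07), of macrophages 0 of 4 (0.04) and of dividing cells 0 of 15 (0.00). The other lists, p53 targets, cholesterol synthesis, heat shock, circadian clock, interferon response, and synaptic and axonal cargo, had no called gene and medians between -0.03 and 0.08.

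**Figure D5:**
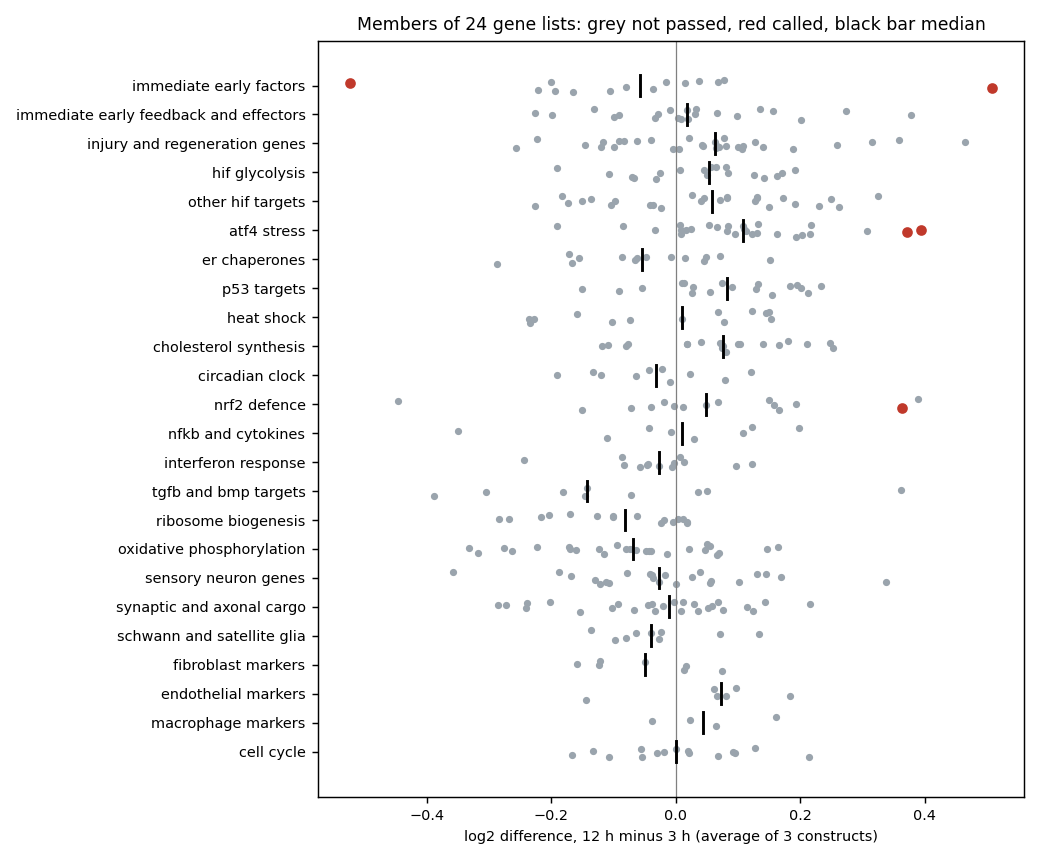
Average log2 difference, 12 h minus 3 h (x axis), of the tested members of 24 gene lists (y axis); grey points did not pass, red points were called, and black bars are list medians. The 5 red points are Fos at -0.52, Jun at 0.51, Cebpb at 0.39, Ddit3 at 0.37 and Srxn1 at 0.36.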

How the data were processed

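The gene lists, and the genes described, were chosen with earlier results of these data known. Per the labels' protocols, amplification of total RNA was linear and the label was biotin. The deposited series table holds intensity for 25697 probes. The submitters' processing notes name GenomeStudio, without a version. The deposited intensity values look background-subtracted and quantile-normalized: they run from -21.7 to 40784.5, and 27.2% are below 0. How the authors set these steps is not given in the sources used here. A second deposited file, whose 32 value columns match no sample label, was used only for gene symbols, which were updated with RefSeq genes of GRCm38.p6.

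Values were corrected with normexp (offset 50), then quantile-normalized and log2-transformed in limma 3.58.1 (R 4.3.3), so fold changes of dim genes are understated. Probes above 16 on at least 2 arrays were kept (15086), and the brightest per gene stood for it. This left 11151 genes, 666 with clone or locus names that are counted but not named. On each array 47.8% to 47.9% of probes exceeded 16. One limma fit held 9 group means (7 residual and 13.2 prior degrees of freedom), so the lone overexpression array at 12 h is assumed to vary like the others. A gene was called when its adjusted p (Benjamini-Hochberg) was under 0.05, and the fit was tested on simulated data.

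The text names Hif1a, the 12 largest rises and 12 largest falls among called genes, up to 4 called members of each list, genes that fade or build up, and the 4 with the smallest construct F test p. Other genes were added after their values were seen. Alternatives covered the background correction, normalization, filter, probe choice, arrays and weights in the fit, the prior, a replicate block, and leaving out each array.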

Additional observations from a re-analysis of the deposited data

How the results depend on the processing

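The small number of arrays and dim probes limit the comparison, and its 27 calls changed with the processing. By background correction, 8 genes were called with values floored at 16, and 0 with 50 added and no normexp or with an offset of 16. Other counts were 7 with cyclic loess, 5 with the mean of all probes, 0 with control and knockdown only, 46 with an intensity trend in the prior, and 68 at an adjusted p under 0.10, a threshold chosen after seeing the data. Leaving out single arrays gave 0 to 36. Control alone went from 0 to 11 (floored), 1 (50 added) and 1 (offset of 16), and ran from 0 to 1 with an array left out. Knockdown alone went from 1 to 2 (floored), 0 (50 added), 0 (offset of 16), 2 (only the 11 arrays) and 11 (trend), and ran from 0 to 2 with an array left out. Overexpression alone went from 0 to 57 when floored. The F test between constructs went from 0 to 27 when floored. The 3 h against uninjured count of 4 became 43 (floored), 2 (offset of 16), 7 (no filter) and 12 (trend), and 4 to 11 with an array left out. The 12 h count of 60 became 32 (floored), 23 (50 added), 6 (offset of 16) and 110 (trend), and 25 to 88 with an array left out. The causes were not tested. Of 855 recomputed values of named genes, 421 kept their call or lack of one, 433 lost a call, 1 gained one and 0 reversed.

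Replicate numbers were not taken to pair the arrays: over 21 pairs of groups, deviations of same-numbered arrays correlated at -0.12 to 0.24 (median 0.03), with 7 pairs over 0.1, the 3 among control groups included, and 1 under -0.1. With the replicate block 26 genes were called, 23 of them among the 27, and the block moved knockdown alone to 21 and 12 h against uninjured to 95.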

Other observations

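A further 41 genes had an adjusted p between 0.05 and 0.10 in limma, 19 higher and 22 lower at 12 h, and are given as values that did not pass. The largest rise was that of Dusp16, a phosphatase gene for stress kinases, which gave 0.52 (SE 0.111, adjusted p = 0.0507). Its control intensities were 52.6 and 52.8 at 3 h and 117 and 106 at 12 h. In knockdown they were 95.9 and 99.9 and then 181 and 215. In overexpression they were 37.3 and 71.0 and then 81.4, so the times did not overlap in any construct. Cx3cl1, the neuronal chemokine fractalkine, gave 0.34 (adjusted p = 0.0507), and in overexpression its intensity went from 43.8 and 46.9 to 98.9. Both were near the uninjured level at 3 h, at -0.12 and -0.04.

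Among the 22 lower genes, Paip2, a regulator of poly(A)-binding protein, gave -0.56 (adjusted p = 0.0838) and Kitl, the ligand of the receptor Kit, -0.49 (adjusted p = 0.0629). Kitl intensity in control went from 2127 and 1632 to 1434 and 1084, and in overexpression from 378 and 215 to 143. In knockdown, from 937.5 and 979.6 to 913 and 808.5, the step was smaller. Epha3, an ephrin receptor gene, gave -0.36. These genes were chosen after their values were seen.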
